A study of Mus musculus with 4 samples.

Results

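Transcripts of 9 complement genes were followed in liver cells of mice fed a NASH diet. They were the genes of the C1q chains (C1qa, C1qb, C1qc), of the components C3, C4b, factor B (Cfb) and properdin (Cfp), and of the receptors C3ar1 and C5ar1. They were picked by symbol, and each had 1 entry among the 32285 genes counted. Single-cell RNA-seq libraries came from 2 Cyr61 KO and 2 Control liver samples. All 4 samples were from male mice of strain Cyr61fl/fl, 24 weeks old, on the diet for 12 weeks, so the Control libraries also carry the floxed allele. The labels do not give the Cre driver or the cells in which Cyr61 was deleted, nor whether each library is 1 animal or a pool, and p-values measure only the spread between libraries. Livers had been stored in serum with 10% DMSO, thawed and digested to single cells, and dead cells were removed on a column.

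Complement is a cascade of plasma proteins that marks microbes, immune complexes and dying cells. C1q, built from A, B and C chains, starts the classical pathway, which splits C4 and then C3, while factor B and properdin form and stabilise the alternative pathway convertase that splits more C3. The released fragments C3a and C5a act on the receptors C3aR1 and C5aR1 of myeloid cells. Hepatocytes secrete most plasma complement apart from C1q and properdin, which come mainly from myeloid cells, and mesenchymal cells also make C3, factor B and C4.

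The C1q genes lie next to each other on the minus strand of mouse chromosome 4 within 18675 bp (GRCm38). C1qb spans chr4:136880129-136886187, C1qc chr4:136889804-136893065 and C1qa chr4:136895917-136898803. C3 (chr17:57203970-57228136), C4b (chr17:34728380-34743882) and Cfb (chr17:34856374-34862518) are on chromosome 17, Cfp (chrX:20925454-20931555) on X, C3ar1 (chr6:122847138-122856161) on 6 and C5ar1 (chr7:16246743-16259540) on 7. All are protein coding on the minus strand. C4b has a near-identical copy, C4a, so its count is uncertain, and Cfb overlaps Gm20547 on the same strand, which was not counted.

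RefSeq start sites (GRCm38.p6) were available for 6 of the 9 genes. The 250 bases before the start are shown, 5′ to 3′ on the minus strand, for the genes whose Control transcripts lay mostly in macrophages (C1qb), mostly in stromal cells (C3) and in several myeloid classes (Cfp). Capitals mark matches on either strand to GAGGAA (the ETS core as bound by PU.1), TGCTGA (part of the Maf recognition element) or TTNNGNAA (a C/EBP motif).
C1qb, chr4:136886201-136886450: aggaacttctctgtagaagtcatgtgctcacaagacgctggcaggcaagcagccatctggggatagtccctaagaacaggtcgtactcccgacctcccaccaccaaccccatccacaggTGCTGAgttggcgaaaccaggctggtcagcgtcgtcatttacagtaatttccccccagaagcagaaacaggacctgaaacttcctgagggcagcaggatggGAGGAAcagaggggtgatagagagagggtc
C3, chr17:57228137-57228386: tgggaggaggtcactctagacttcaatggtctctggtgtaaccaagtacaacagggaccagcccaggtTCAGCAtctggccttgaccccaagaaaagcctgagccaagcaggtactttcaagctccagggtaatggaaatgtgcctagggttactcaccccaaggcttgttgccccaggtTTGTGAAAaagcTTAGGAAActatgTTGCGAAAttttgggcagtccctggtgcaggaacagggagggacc
Cfp, chrX:20931556-20931805: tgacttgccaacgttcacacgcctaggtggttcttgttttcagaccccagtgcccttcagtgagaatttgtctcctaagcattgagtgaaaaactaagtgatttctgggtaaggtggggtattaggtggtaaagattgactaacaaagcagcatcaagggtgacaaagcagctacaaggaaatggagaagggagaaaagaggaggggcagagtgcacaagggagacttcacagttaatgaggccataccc
The C1qb window holds GAGGAA starting 30 bases and TGCTGA starting 131 bases before the start. The C3 window holds TTNNGNAA at 70, 58 and 45 bases, the last on both strands, and TGCTGA in reverse at 182 bases. The Cfp window holds none of the 3. Among 27025 mouse promoters of the same length, 23.1% hold GAGGAA, 15.8% TGCTGA and 36.9% TTNNGNAA, so these matches are common and are given as a description only.

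The libraries held 17187561 and 17925516 UMIs in KO and 8290677 and 20537236 UMIs in Control, in 7241 and 5373 KO barcodes and 4852 and 7253 Control barcodes. After filtering, 6742 and 4847 KO cells and 4535 and 6679 Control cells were kept, with median UMIs of 1847 and 2814 in KO and 1203 and 2203 in Control. Pairs of libraries shared 6 to 22 barcodes, at most 0.304% of the smaller library. Ccn1, the gene of CYR61, had 0 and 12 UMIs in KO and 184 and 149 in Control. Classes were gated per cell on marker lists that hold none of the 9 genes. The gates gave 3 and 1 KO macrophages against 55 and 36 in Control, 186 and 72 KO monocytes against 252 and 213, 64 and 48 KO neutrophils against 95 and 138, and 0 and 0 KO stromal cells (mesothelial, fibroblast and stellate markers) against 247 and 52. The 16 stromal markers summed to 1.69 and 1.06 CPM (counts per 1000000 UMIs) over all KO cells, with 7 and 4 of them detected, and to 3448 and 1305 CPM in Control, with all 16 detected. The 18 macrophage markers summed to 109 and 99.9 CPM in KO, with 13 detected in each library, and to 360 and 199.3 CPM in Control, with all 18 detected. In bulk sums over cells, fewer cells of a type and less RNA per cell cannot be told apart.

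Summed over all kept cells, all 9 genes were lower in KO, and in each the KO and Control libraries did not overlap. Of 14148 genes tested, 8.84% were called in either direction, 1.43% as higher and 7.41% as lower (edgeR quasi-likelihood test, Benjamini-Hochberg adjusted p below 0.05), and 61.9% did not overlap between the groups. The median log2 fold change was -5.11 over the 9 genes and -0.00 over all genes tested. Of the 9, 5 passed the filter on low counts through the Control libraries alone, which favours a lower call in KO. C3, on which all complement pathways converge, was at 15.6 and 12.1 CPM in KO and 813 and 319 CPM in Control (log2 -5.28 ± 0.47, SE, edgeR adjusted p = 0.0129). C4b, a classical pathway component, was at 0.260 and 0.0621 CPM in KO and 37.1 and 20.1 CPM in Control (-7.34 ± 0.51, edgeR adjusted p = 0.00890). Cfb was at 0.519 and 0.373 CPM in KO and 72.6 and 29.2 CPM in Control (-6.73 ± 0.55, edgeR adjusted p = 0.0129). All 3 had KO levels far under both Control libraries. Gated hepatocytes numbered only 37 and 21 in KO and 4 and 8 in Control. They held 1 KO and 2 Control UMIs of C3, and 2 KO and 0 Control UMIs of C4b. The sums thus say little about complement transcripts of hepatocytes.

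C1qb had 4.22 and 0.932 CPM over all KO cells and 115 and 40.1 CPM over all Control cells (log2 -4.83 ± 0.72, edgeR adjusted p = 0.0235). C1qa (log2 -5.11 ± 0.89, edgeR adjusted p = 0.0308) and C1qc (-5.18 ± 0.74, edgeR adjusted p = 0.0214) fell too. With 1 library left out, the fitted values ran from -8.04 to -4.19 for C1qa, from -6.27 to -4.02 for C1qb and from -6.86 to -4.38 for C1qc. With predicted doublets kept, C1qa was at -4.01 (edgeR adjusted p = 0.0650). Properdin and the receptors fell on the log2 scale by 1.88 ± 0.24 for Cfp (edgeR adjusted p = 0.0187), 2.15 ± 0.24 for C5ar1 (0.0157) and 3.42 ± 0.42 for C3ar1 (0.0174). Cfp had 7.14 and 7.77 CPM in KO, compared with 36.3 and 21.3 CPM in Control, C5ar1 had 4.93 and 3.92 CPM against 24.5 and 16.5 CPM, and C3ar1 had 0.519 and 0.435 CPM against 6.66 and 4.22 CPM. Leaving out the stromal cells, an alternative chosen after seeing the data, left all 9 genes lower, with C3 at -2.62 (edgeR adjusted p = 0.0255), where 2.76% of 13590 genes were called and 2.15% as lower. Leaving out stromal cells, macrophages and monocytes left 8 lower, where 3.39% of 13520 genes were called and 2.62% as lower, and C3ar1 was at -2.89 (edgeR adjusted p = 0.0520). The removal was by gate and incomplete, since ungated cells held 1157 of the 4142 Control C1q UMIs. T cells held 613 Control C3 UMIs and conventional dendritic cells 397, of which 1 cell of Control 2 held 260. Without KO 1, edgeR adjusted p-values of Cfp and C3ar1 were 0.0664 and 0.0663, and without KO 2 that of C3ar1 was 0.0598.

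**Figure D1:**
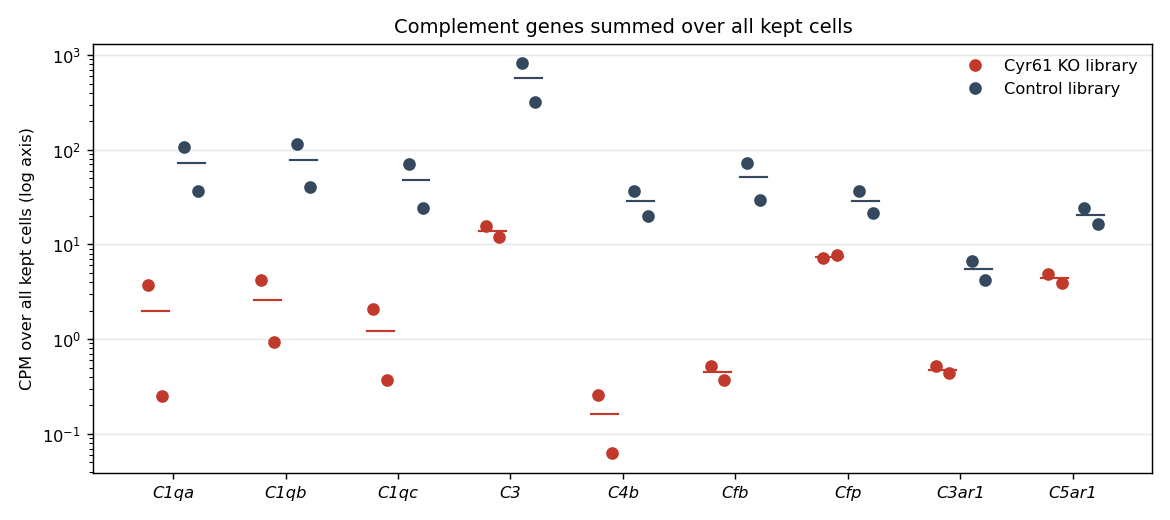
Level of each gene over all kept cells, in CPM on a log axis, with each point 1 library and KO left of Control. The libraries of the groups do not overlap for any of the 9 genes, and the gap is widest for C4b and Cfb.

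Control transcripts fell into separate cell sources. Of Control C1q UMIs, summed over the 3 chains, 60.4% lay in gated macrophages, 27.9% in ungated cells and 7.27% in monocytes. Of Control C3, Cfb and C4b UMIs, 85.6%, 84.7% and 80.9% lay in stromal cells. C3ar1 lay mostly in macrophages (62.3% of Control UMIs). For C5ar1, neutrophils held 69.8% of KO and 48.8% of Control UMIs, and macrophages held 5.76% of KO and 21.6% of Control UMIs. Control Cfp was spread over macrophages (20.1%), conventional dendritic cells (14.3%), monocytes (13.5%) and ungated cells (32.5%). In KO, 59.8% of the 179 C1q UMIs lay in ungated cells and 34.6% in macrophages, and 43.9% of the 435 C3 UMIs lay in monocytes.

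**Figure D2:**
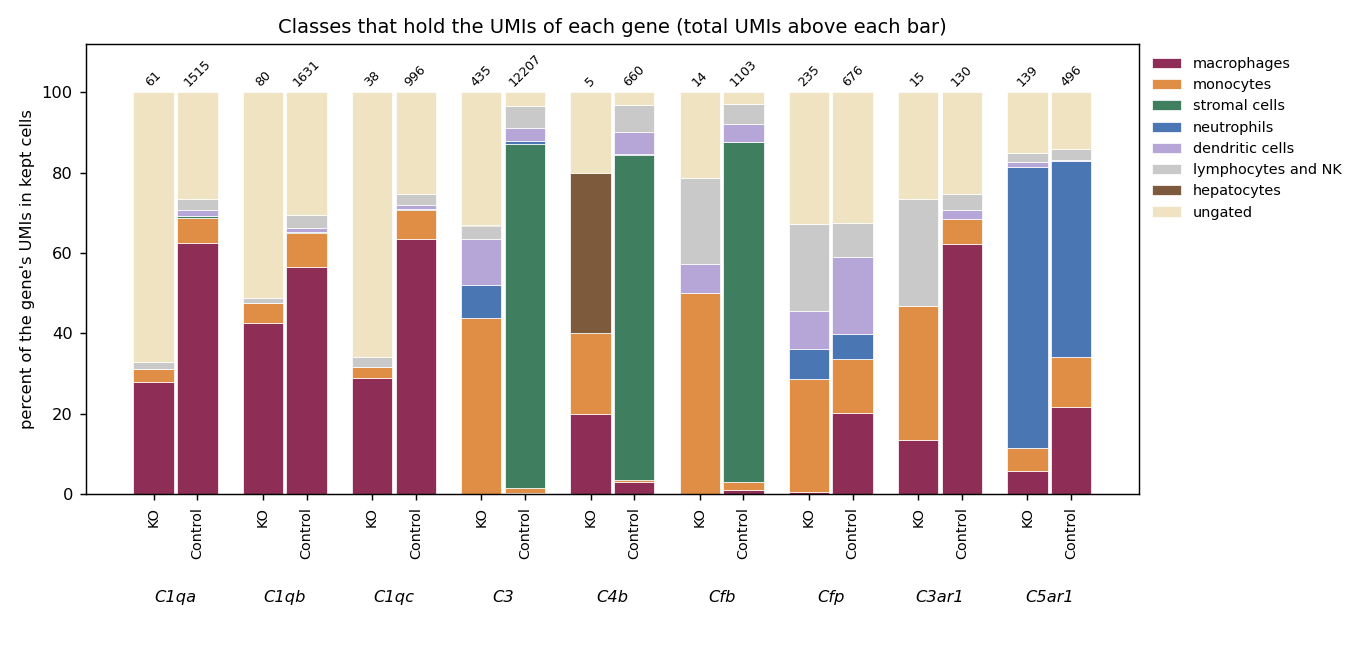
Percent of each gene's UMIs that lay in each cell class, as stacked bars with KO left of Control. Most of Control C3 is in stromal cells (85.6%), while the largest share of KO C3 is in monocytes (43.9%).

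In Control, macrophages stood above the other 9 classes measured for the C1q chains, C3ar1 and Cfp. C1qa was at 2835 ± 43.1 CPM in Control macrophages (SD, n = 2) and at 144 ± 183 CPM in patrolling and 87.2 ± 62.4 CPM in classical monocytes, and the Control libraries of these monocyte classes overlapped. In macrophages C1qa had 1754 and 127 CPM in KO, compared with 2866 and 2805 CPM in Control. C1qb had 3070 and 762 CPM in KO, compared with 2803 and 2729 CPM in Control, and C1qc had 1206 and 0 CPM against 1926 and 1861 CPM. The KO values rest on 3 cells and 1 cell. For the chains summed, exact Poisson intervals, which cover counting error only, ran from 4542 to 7848 CPM around 6029 CPM in KO 1 and from 357 to 1831 CPM around 889 CPM in KO 2, while Control had 7595 and 7395 CPM.

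Per cell, C1q made up a median of 65.5 UMIs per 10000 in the 3 cells of KO 1 and 8.89 in the cell of KO 2, against 64.0 and 69.7 in Control, where single cells ranged from 0 to 215. No C1q UMI was found in 5 and 4 of the Control macrophages, so a low KO value cannot fall outside that range. All 3 chains were detected in 2 of 3 and 0 of 1 KO macrophages and in 42 of 55 and 26 of 36 Control macrophages. C1qa and C1qb made up 29.1% and 50.9% of the C1q UMIs in KO 1 macrophages, against 37.7% and 36.9% in Control 1 and 37.9% and 36.9% in Control 2. The 2 Control libraries thus held the chains in nearly the same proportions. In an edgeR fit of gated macrophages that allowed any number of cells, added after seeing the data, 6 of 1204 genes and 0 of 6 members passed, with C1qa at log2 -1.87 ± 0.60 (adjusted p = 0.203) and C1qb at -0.83 ± 0.53 (adjusted p = 0.660). In that fit 3 members had an unadjusted p below 0.05, and DESeq2 called 0. With predicted doublets kept, KO had 5 and 2 macrophages and Control still 55 and 36. C1qa was then at -0.97 ± 0.77 (edgeR adjusted p = 0.876) and C1qb at -0.57 ± 0.60 (0.885).

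Cells rich in C1q were also counted without any gate. Cells with 5 or more C1q UMIs numbered 5 and 3 in KO, 0.0742% and 0.0619% of cells, against 86 and 52 in Control, 1.90% and 0.779% of cells. They held 92.2% and 96.0% of all C1q UMIs in KO and 89.7% and 93.5% in Control. Of these cells, 2 and 2 in KO and 24 and 16 in Control were ungated. With predicted doublets kept, cells with 5 or more C1q UMIs numbered 10 and 4 in KO and 90 and 53 in Control. A UMI of C1qa was found in 4 of 4 KO macrophages and in 83.5% of Control macrophages, against 0.0212% of KO and 0.383% of Control T cells, which should lack it, at median depths of 3416 and 2959 UMIs in macrophages and 2768 and 1851 in T cells.

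**Figure D3:**
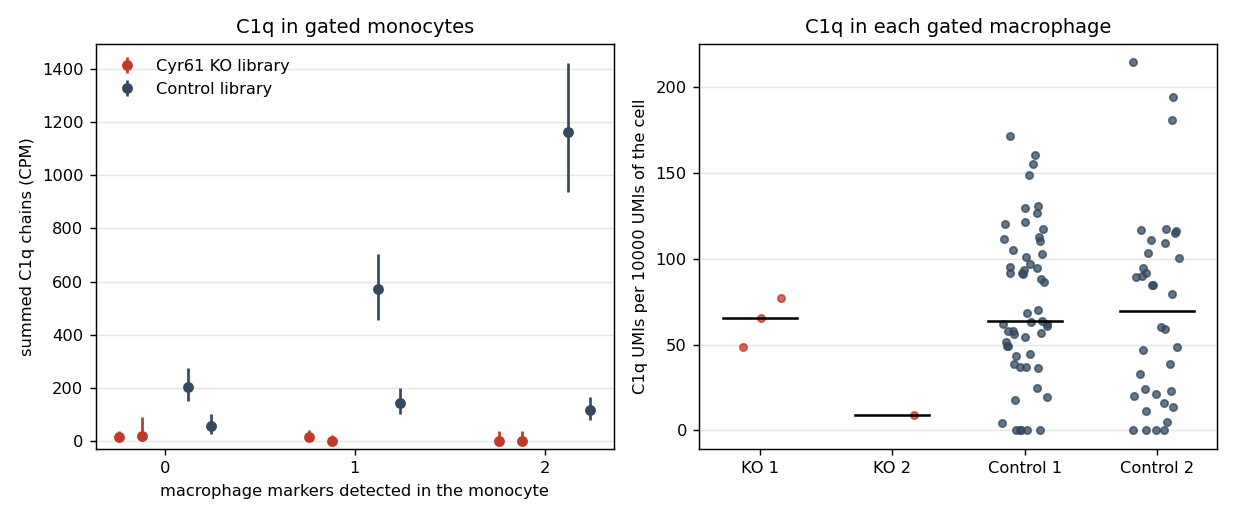
Left, summed C1q level (CPM) in monocytes by the number of macrophage markers detected in the cell, each point 1 library with its exact 95% Poisson interval; right, C1q UMIs per 10000 in each gated macrophage, with lines at the medians and KO left of Control. Single Control macrophages range from 0 to 215, the KO 1 median is 65.5, and KO monocyte points lie below Control at each number of markers.

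Summed macrophages and monocytes held enough cells for the test. Of 5968 genes, 1.46% were called, 0.184% as higher and 1.27% as lower, and 6 of the 8 members tested were lower in KO. Of the 8, 5 passed the filter on low counts through the Control libraries alone. C1qa had 32.0 and 2.89 CPM in KO, compared with 910 and 549 CPM in Control (log2 -5.27 ± 0.44, edgeR adjusted p = 1.65e-05). With 1 library left out, the fitted value ran from -8.05 to -4.61 for C1qa, from -5.36 to -3.84 for C1qb and from -11.28 to -4.63 for C1qc. C1qb (-4.31), C1qc (-5.35), C3ar1 (-3.05 ± 0.43, edgeR adjusted p = 0.00133), C5ar1 (-2.81 ± 0.33, edgeR adjusted p = 0.000318) and Cfp (-1.17 ± 0.26, edgeR adjusted p = 0.0378) also fell. With DESeq2, C1qc (adjusted p = 0.285) and Cfp (0.239) did not pass, and edgeR without KO 1 or Control 1 gave Cfp adjusted p-values of 0.191 and 0.107. C3 had 211 and 208 CPM in KO, compared with 87.4 and 152 CPM in Control, and did not pass (0.66, edgeR adjusted p = 0.285). The share of macrophages in this pool differed between the groups, with 3 and 1 macrophages beside 186 and 72 monocytes in KO and 55 and 36 macrophages beside 252 and 213 monocytes in Control, and its part in these values was not tested.

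In monocytes alone, 4 of the 6 members tested were lower in KO, where 0.676% of 5474 genes were called, 0.0913% as higher and 0.585% as lower. C1qb had 5.41 and 2.96 CPM in KO, compared with 220 and 50.4 CPM in Control (log2 -4.89 ± 0.76, edgeR adjusted p = 0.00253). C1qa had 2 UMIs in KO and 95 in Control, a ratio of 0.0271 (counting interval 0.00324 to 0.101), and C1qc had 1 and 71 UMIs, a ratio of 0.0181 (0.000453 to 0.104). Both passed (edgeR adjusted p = 0.00449 and 0.00875). All 4 that were called passed the filter on low counts through the Control libraries alone, so their being called lower was favoured beforehand. With 1 library left out, the fitted values ran from -8.51 to -3.99 for C1qa, from -5.68 to -3.53 for C1qb and from -8.09 to -4.30 for C1qc. Leaving out Control 1 left 0 members called, and leaving out Control 2 left 3, with C5ar1 at -1.94 (edgeR adjusted p = 0.600). With DESeq2, C1qa (adjusted p = 0.226) and C5ar1 (0.288) did not pass.

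The C1q of Control monocytes lay in few cells. Of 224 and 77 C1q UMIs in the Control monocytes, 13 and 6 cells with 5 or more held 86.6% and 77.9%, and no KO monocyte had 5. Macrophage markers summed to 325 and 284 CPM in KO monocytes and 430 and 354 CPM in Control monocytes. Mertk, Cd5l, Timd4, Clec4f, Marco, Cd163 and Slc40a1 were at 0 in monocytes of all 4 libraries. Cd38 was at 0 in KO alone and Cd63 in Control alone, while Folr2 was detected in Control 2 alone and Gpnmb was at 0 in KO 2 alone. Among gated Control macrophages, only 6 of 55 and 6 of 36 had any of Clec4f, Timd4, Marco or Cd5l, so most lacked these markers too. In monocytes with no macrophage marker, the summed C1q was 12.9 and 16.3 CPM in KO and 205 and 55.5 CPM in Control. With 1 marker it was 13.8 and 0 CPM in KO and 570 and 144 CPM in Control, and with 2 it was 0 and 0 CPM in KO and 1162 and 117 CPM in Control. KO lay below Control at each number of markers, but the KO values with no marker rest on 3 UMIs and 1 UMI. There the counting interval of KO 2, 0.413 to 90.9 CPM, covered the Control 2 value. In the fit restricted to monocytes with no macrophage marker, added after seeing the data, 0 genes passed with edgeR of 2998, and no C1q gene passed the filter on low counts. Of these genes 147 had an unadjusted p below 0.05 and DESeq2 called 0. In the classical monocytes among them C1qb was at -3.98 (edgeR adjusted p = 0.811).

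Classical monocytes (Ly6c2 and Ccr2 type) gave the same 4 members as lower in KO, again through a filter passed by the Control libraries alone, where 0.836% of 4902 genes were called, 0.143% as higher and 0.694% as lower. C1qc had 0 UMIs in both KO libraries and was at 105 and 24.4 CPM in Control. With KO set to a floor of 3 counts over the group it was 14.97-fold lower, and the counting interval of the ratio ran from 0 to 0.0851. C1qa had 1 UMI in KO and 72 in Control (ratio 0.0161, counting interval 0.000402 to 0.0925; edgeR adjusted p = 9.83e-05), and C1qb had 1 UMI in KO, at 0 and 3.39 CPM, and 188 and 59.9 CPM in Control (ratio 0.0114, counting interval 0.000285 to 0.0647; edgeR adjusted p = 1.82e-05). With 1 library left out, the fitted values ran from -8.12 to -4.93 for C1qa and from -8.83 to -5.21 for C1qb. With DESeq2, C1qa (adjusted p = 0.0815), C1qc (0.466) and C5ar1 (0.638) did not pass. In patrolling monocytes, 29 and 6 cells in KO and 60 and 59 in Control, no member passed the filter on low counts. There edgeR called 0 of 923 genes, with 32 at an unadjusted p below 0.05, and DESeq2 also called 0.

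**Figure D4:**
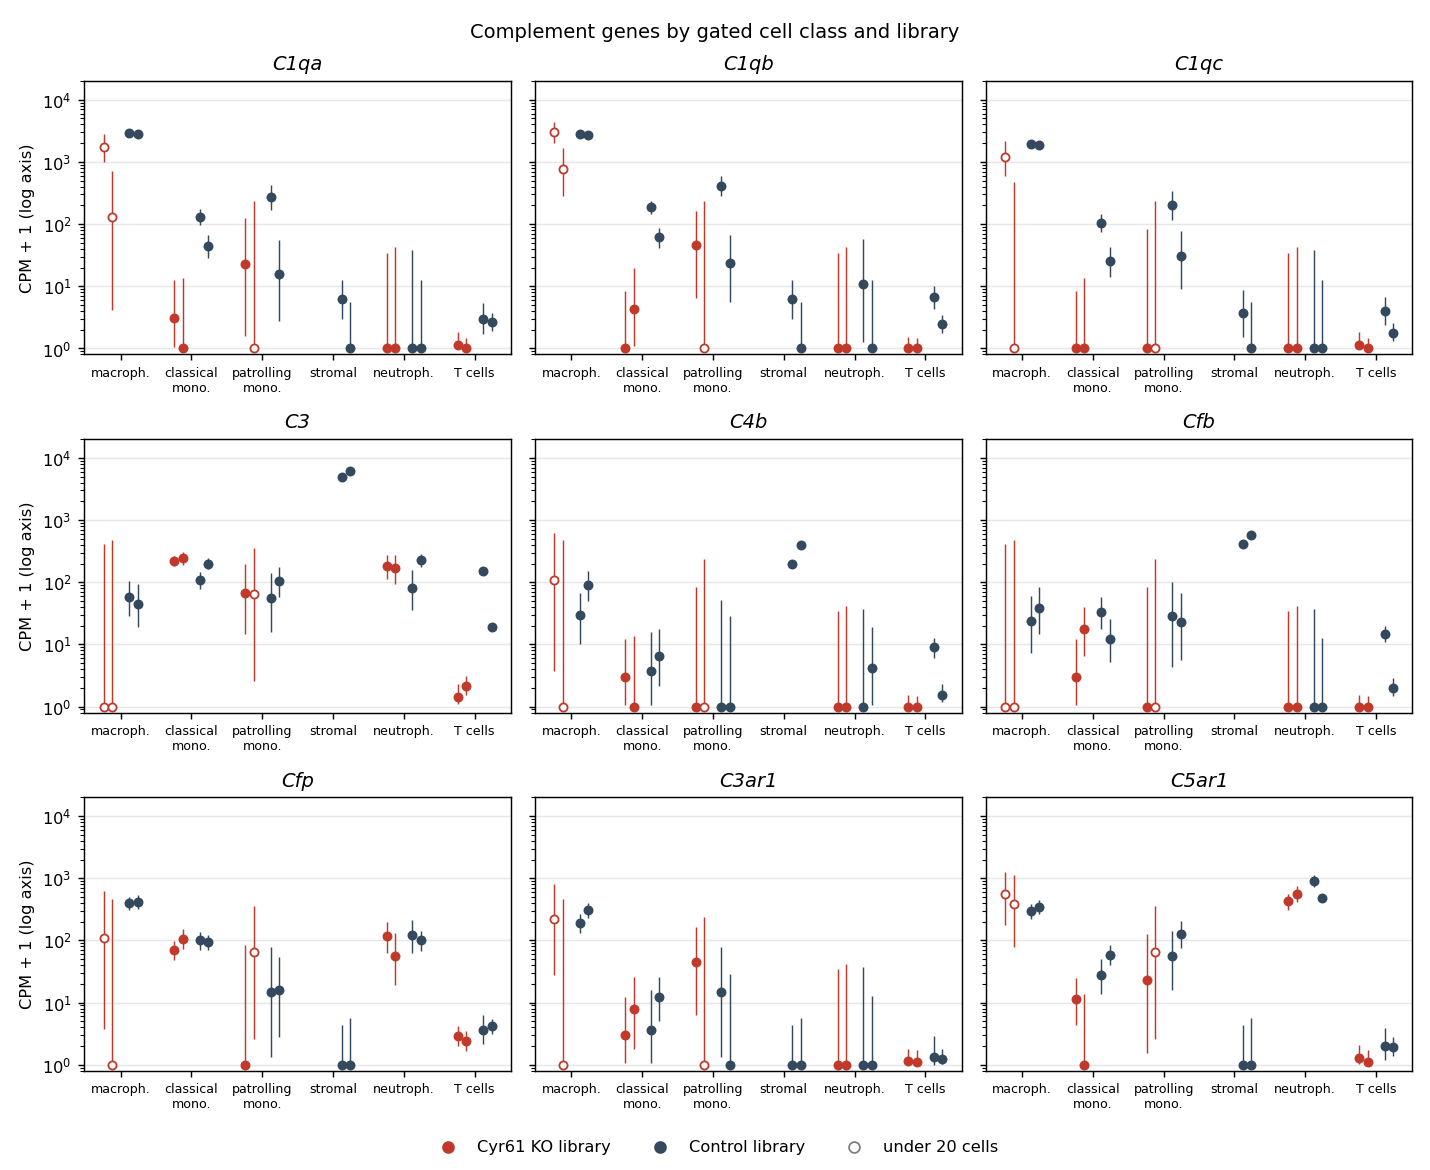
Level of each gene in each class and library, as CPM + 1 on a log axis, with KO points left of Control points; bars are exact 95% Poisson intervals and open points rest on under 20 cells. Stromal cells have no KO points because no KO cell passed that gate.

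C3, Cfb and C4b had their highest levels in Control stromal cells. C3 was at 4874 and 6183 CPM there (5528 ± 926, SD, n = 2), Cfb at 416 and 581 CPM (498 ± 117) and C4b at 193 and 394 CPM (294 ± 143). C3 was detected in 243 of 247 and 52 of 52 stromal cells, Cfb in 135 and 44, C4b in 83 and 36, and all 3 together in 52 and 31. Over both libraries Cfb was detected in 59.9% and C4b in 39.8% of stromal cells at a median depth of 2126 UMIs, against 0.343% and 0.283% of Control T cells at 1851 UMIs. Median depth in these cells was 1693 UMIs in Control 1 and 13608 in Control 2. Scaled per 10000 UMIs, the median C3 was 64.8 and 60.0, close in the 2 libraries in spite of that gap. Stromal cells with 3 or more of 7 mesothelial markers had C3 at 4953 and 6241 CPM, and the other 78 and 5 stromal cells had 4489 and 3905 CPM, where 1 of the 5 Control 2 cells held 43.6% of their 78 C3 UMIs. No KO cell passed this gate, and 3 cells would have been 0.0445% and 0.0619% of the KO libraries, against 5.45% and 0.779% in Control, so KO levels in stromal cells were not measured.

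C3 did not pass the test in monocytes or neutrophils. In monocytes C3 had 215 and 213 CPM in KO, compared with 99.1 and 177 CPM in Control (log2 0.47 ± 0.24, edgeR adjusted p = 0.549), and KO lay above Control in both libraries without passing the test. Such a separation was common, since 42.3% of the 5474 genes tested in monocytes did not overlap between the groups. The C3 UMIs were spread over 71 and 33 KO cells and 40 and 72 Control cells, with at most 6 in a cell. The fibroblast transcript Dcn had 0 and 0 UMIs in KO monocytes and 1 and 1 in Control monocytes. Pooled over the libraries of each group, C3 was detected in 44.9% of KO and 27.8% of Control classical monocytes. The Control libraries differed, with 18.7% (35 of 187 cells) and 39.6% (57 of 144 cells). The KO libraries had 42.7% (64 of 150 cells) and 32 of 64 cells, so Control 2 lay close to KO 1. After thinning every cell to 1000 UMIs the pooled shares were 23.8% and 12.9%, which were not split by library. In T cells C3 was detected in 0.233% of KO and 1.13% of Control cells, at median depths of 2768 and 1851 UMIs against 3148 and 2104 in classical monocytes. In neutrophils C3 had 180 and 167 CPM in KO, compared with 79.9 and 223 CPM in Control, the groups overlapped, and the gene did not pass (log2 -0.07 ± 0.45, edgeR adjusted p = 0.996). C3 in Control T cells was at 151 and 17.9 CPM, where 21 cells and 1 cell held 427 of 453 and 145 of 160 UMIs, against 0.438 and 1.14 CPM in KO T cells. Dcn had 775 and 70 UMIs in the Control T cells and 1 and 0 in the KO T cells. The part of stromal transcripts in the T cell values of C3 was not tested.

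Cfp encodes the only known positive regulator of the alternative pathway convertase. Control macrophages had 399 and 418 CPM of it, above the plasmacytoid dendritic cells next in order (128 ± 29.3 CPM, SD, n = 2), which overlapped neutrophils. In KO macrophages it had 1 UMI in KO 1 and 0 in KO 2. Doublet removal took cells from this class in KO alone, where 5 and 2 macrophages became 3 and 1, while Control kept 55 and 36. The cells removed from KO 1 held 2 and 9 Cfp UMIs. In the added macrophage fit Cfp was at log2 -3.10 ± 1.13 (edgeR adjusted p = 0.330), and at -0.54 ± 0.68 (0.916) with predicted doublets kept. In monocytes Cfp had 61.4 and 94.7 CPM in KO, compared with 83.7 and 76.3 CPM in Control (log2 -0.21, edgeR adjusted p = 0.868), and the groups overlapped. In neutrophils it had 117 and 55.8 CPM in KO, compared with 120 and 98.9 CPM in Control (-0.33, edgeR adjusted p = 0.952). Among Control macrophages, the 6 and 6 cells with a marker of resident Kupffer cells (Clec4f, Timd4, Marco or Cd5l) had Cfp at 1049 and 1126 CPM. Those with Trem2 or Gpnmb and no resident marker had 292 and 246 CPM, and those with none of these had 292 and 270 CPM. Cells with a resident marker thus held the highest Cfp level in both libraries, and their summed C1q was also highest, at 10287 and 8977 CPM against 7387 and 7324 CPM and 6590 and 5583 CPM. In Control 2, 1 of the 6 cells with a resident marker held 19308 of their 30188 UMIs. That cell held 20 of the 34 Cfp UMIs and 177 of the 271 C1q UMIs. This split was chosen after seeing the data and was not tested; no KO macrophage had a resident marker.

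C3ar1, the C3a receptor gene, had 219 and 0 CPM in KO macrophages, from 2 UMIs in all, against 188 and 304 CPM in Control macrophages. Its level in Control classical monocytes, 6.96 ± 6.05 CPM (SD, n = 2), was below that in macrophages in both libraries. In monocytes it had 5.41 and 5.92 CPM in KO, compared with 4.41 and 8.64 CPM in Control, too few UMIs for the test. It was at 0 in neutrophils of all 4 libraries.

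C5ar1, the C5a receptor gene, was highest in neutrophils among the Control classes, and in neutrophils it had 423 and 558 CPM in KO, compared with 908 and 482 CPM in Control. The groups overlapped (log2 -0.52 ± 0.33, edgeR adjusted p = 0.855). In neutrophils edgeR and DESeq2 each called 0 of 1405 genes, with 86 at an unadjusted edgeR p below 0.05. C5ar1 was detected in 47.3% of KO and 56.7% of Control neutrophils, and in 39.5% and 40.4% after thinning to 1000 UMIs, against 0.0636% of KO and 0.222% of Control T cells. In macrophages it had 548 and 381 CPM in KO, from 8 UMIs, against 296 and 348 CPM in Control. In monocytes it fell, with 12.6 and 2.96 CPM in KO, compared with 30.8 and 69.1 CPM in Control (log2 -2.65 ± 0.55, edgeR adjusted p = 0.0285). In classical monocytes it also fell, with 10.2 and 0 CPM in KO and 26.8 and 58.1 CPM in Control (-2.89 ± 0.64, edgeR adjusted p = 0.0201), and it ran from -7.22 to -2.21 with 1 library left out (edgeR adjusted p = 0.0571 without KO 2). In all and in classical monocytes it passed the filter on low counts through the Control libraries alone, which favours a lower call in KO. DESeq2 called it in neither. With clusters in place of the gate it did not pass, at -1.16 in classical monocytes (edgeR adjusted p = 0.337) and at -1.68 in all monocytes (0.0695). In all monocytes it ran from -4.19 to -1.94 with 1 library left out. The difference between its change in neutrophils and in monocytes of the same libraries was 2.10 ± 0.58 on the log2 scale and did not pass (edgeR adjusted p = 0.146, where 0.143% of 4904 genes passed), so the classes are not shown to differ.

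**Figure D5:**
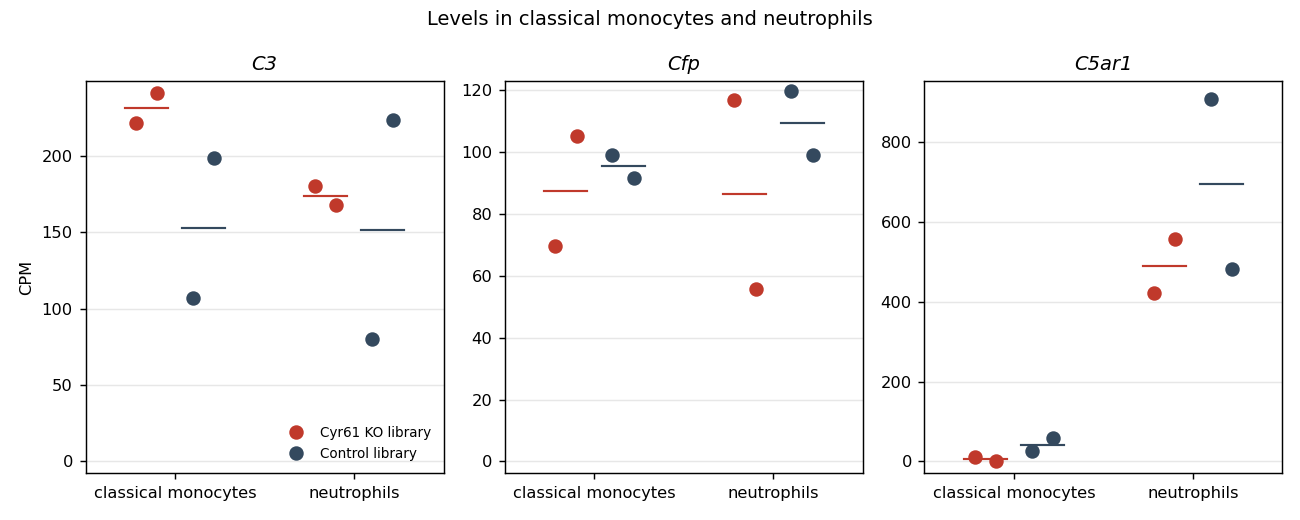
Level in CPM of C3, Cfp and C5ar1 in classical monocytes and neutrophils, with each point 1 library, lines at the group means and KO left of Control. C5ar1 is lower in both KO libraries of classical monocytes, where 44.7% of the 4902 genes tested did not overlap between the groups. The neutrophil libraries of the groups overlap for all 3 genes.

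A list of 47 other complement genes was read alongside. Over all kept cells 23 could be tested, of which 1 was higher, 11 were lower and 11 did not pass, where 1.43% of all genes tested were higher and 7.41% lower. Their median was -1.83 on the log2 scale, against -0.00 over all genes. Of the lower genes, Serping1, C1s1, C1ra, C2, Clu, Colec12, Vsig4 and Cd59a had at most 6 UMIs in each KO library. They passed the filter on low counts through the Control libraries alone, which favours a lower call in KO and a lower median. Serping1, of the C1 inhibitor, had 0.260 and 0.249 CPM in KO, compared with 166 and 85.1 CPM in Control (log2 -8.83 ± 0.45, edgeR adjusted p = 0.00370). The proteases that act with C1q were lower too. C1s1 had 0 UMIs in KO and 2045 in Control, 815-fold lower with KO set to a floor of 3 counts over the group. The counting interval of its ratio ran from 0 to 0.00151. C1ra had 3 and 807 UMIs, a ratio of 0.00311 (counting interval 0.000640 to 0.00912). Cd55, of a membrane inhibitor of the convertases, was the gene that rose, with 280 and 222 CPM in KO, compared with 124 and 144 CPM in Control (0.93 ± 0.20, edgeR adjusted p = 0.0454). The second C5a receptor gene, C5ar2, fell by 1.83 ± 0.41 on the log2 scale (edgeR adjusted p = 0.0497). Also lower were C2 (-6.06), a protease of the classical convertase, Clu (-9.27) and Cd59a (-3.32), of inhibitors of the terminal complex, Vsig4 (1 UMI in KO and 35 in Control, ratio 0.0239, counting interval 0.000589 to 0.142), a C3b receptor of Kupffer cells, Lrp1 (-2.08), a scavenger receptor, and Colec12 (-5.35), a collectin. The listed genes with the highest mean Control levels were Itgam and Calr in macrophages (501 and 449 CPM), Calr and Itgb2 in monocytes (279 and 228 CPM), Clu and Serping1 in stromal cells (2199 and 1343 CPM) and Itgb2 and Itgam in neutrophils (423 and 418 CPM). In monocytes, classical and patrolling monocytes, macrophages with monocytes, and neutrophils, edgeR called 0 of the 9, 8, 4, 9 and 3 listed genes tested, with 1, 1, 0, 3 and 0 at an unadjusted p below 0.05, and DESeq2 called 0. In monocytes Itgam, a chain of complement receptor 3, had 253 and 284 CPM in KO, compared with 148 and 180 CPM in Control (0.56 ± 0.20, edgeR adjusted p = 0.326), which did not pass.

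Across 35 sums of a class in a library, the genes most like each member in log2 CPM were named from 10138 genes, as a description, since the sums share libraries and depth. For the C1q chains summed these were F7, Gdf3, Mmp12, C3ar1 and Rab3il1 (Pearson r 0.77 to 0.80), and for C3ar1 they were Dpep2, C1qa, Mmp12, F7 and C1qb (0.80 to 0.81). For C5ar1 they were led by Fpr1 (r = 0.95), a formyl peptide receptor gene of neutrophils, and for Cfp by Ptafr (0.93), the platelet activating factor receptor gene. C3 was most like Thbd (0.83), and C4b most like Cp (0.89), the ceruloplasmin gene.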

How the data were processed

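The authors deposited 10x count matrices, whole-number UMI counts per gene and barcode and not normalized, made with Cell Ranger 3.1.0 on mm10, per the submitters' processing notes. Other upstream settings are not given in the sources used here. Barcodes with at least 500 UMIs, 250 genes and at most 25% mitochondrial UMIs were kept (Python 3.11.15, scanpy 1.11.5). The highest doublet scores were removed at 0.8% per 1000 barcodes, 415 and 218 KO and 183 and 411 Control barcodes, since Scrublet's own threshold marked 0.0140% and 1.74% of KO and 0.0424% and 0% of Control barcodes and did not work in all. Cells were gated on markers detected: stromal cells 4 of 16 and neutrophils 4 of 16. Monocytes had 3 shared and 2 own markers and at most 2 macrophage markers. Macrophages had 3 or more of 18, no fewer than classical and more than patrolling monocyte markers, and 2 or more of the shared markers. Gate thresholds were set after seeing the data, and the members and lists were chosen with earlier results of these data known. UMIs were summed per class and library, and CPM is per 1000000 UMIs of that sum. KO and Control were compared with edgeR 4.0.16 (R 4.3.3; TMM, filterByExpr, quasi-likelihood test) over all genes, with Benjamini-Hochberg adjustment; macrophages and stromal cells, under 20 cells in KO, had no main test. Named genes are the 9 members, other complement genes past the test in any class or with the 2 highest mean levels in a class, and the 5 genes most like a member (log2 of CPM + 1, mean of at least 5 CPM), of which some are named. The values of 1 of the other complement genes are not reported here. Alternatives were DESeq2 1.42.0, RLE scaling, no filter, a replicate block, leaving out libraries, other cell filters and gates, Leiden clusters made without the members, and groups of cells left out. Median depth was 1203 to 2814 UMIs per cell, so 1 UMI in a typical cell is a large share, and intervals cover counting error only. Genome coordinates are from GENCODE M21, to which 99.8% of gene IDs matched. Test scripts were tested on simulated data. With 2 libraries per group an exact permutation test cannot reach 0.05.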

Additional observations from a re-analysis of the deposited data

How the results depend on the processing

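Of 422 gene-level values under alternatives, 388 kept their direction and their side of the threshold, 26 kept direction but no longer passed, 2 newly passed and 6 reversed; the cause was not tested. The reversed ones were of genes not called in those classes. They were small, apart from neutrophil C3, which reached 1.13 with a library left out. Neutrophil C3 (log2 -0.07) was 0.020 with DESeq2, 0.14 with the replicate block, 0.051 with crossed replicate numbers and -0.52 to 1.13 with a library left out. Cfp was -0.48 to 0.080 in monocytes and -1.05 to 0.051 in neutrophils with a library left out. Changed genes over all kept cells numbered 1250, against 2026 with DESeq2, 3443 with no filter, 3475 with the replicate block, 375 without stromal cells, 459 without stromal cells, macrophages and monocytes, and 220 to 5123 with a library left out. In macrophages and monocytes together they numbered 87, against 42 with DESeq2, 214 with no filter, 245 with the replicate block, 56 with no macrophage marker in monocytes, and 94 to 174 with a library left out. C3 there passed as higher in KO with the block (log2 0.71, edgeR adjusted p = 0.0464) and without Control 2 (1.09, edgeR adjusted p = 0.0265). In monocytes 37 became 9 with DESeq2, 87 with no filter, 62 with the replicate block, 22 at 1000 UMIs or more, 0 with no macrophage marker, and 6 to 134 with a library left out. In classical monocytes 41 became 1 with DESeq2, 70 with no filter, 129 with the replicate block, 16 with the stricter gate, 21 with clusters, 0 with no macrophage marker, and 27 to 153 with a library left out. In patrolling monocytes 0 became 6 with no filter, 1 with the replicate block, 2 with clusters, and 1 to 17 with a library left out. In neutrophils 0 became 8 with no filter, 6 with clusters, and 0 to 13 with a library left out. The replicate numbers are taken as names: correlations of same-numbered libraries ran from -0.131 to 0.150 over 2 pairs. A minimum of 5 cells for macrophages and stromal cells was not run, because KO had 3 and 1 macrophages and 0 stromal cells. The macrophage values rest on 4 KO cells. The depth of a typical cell, 1203 to 2814 UMIs at the median of a library, limits the detection of low genes.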
